A study of Mus musculus with 564 samples.

Results

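The genes described here are 7 marker genes of alternative macrophage activation: Chil3, Chil4, Retnla, Mrc1, Clec10a, Mgl2 and Tgm2. Their regulatory regions were taken as the cis-regulatory elements (CREs) whose centre lay within 25 kb of an annotated transcription start of a marker gene in the mouse genome build mm10 (GRCm38), which gave 29 of the 59190 CREs measured in the series. By gene these were 1 CRE for Chil4, 4 for Retnla, 8 for Mrc1, 3 for Clec10a, 3 for Mgl2, 10 for Tgm2 and 0 for Chil3, so no value can be given for Chil3. Each CRE is called by its gene and the distance of its centre from the transcription start, with a minus for upstream.

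The cells were bone marrow-derived macrophages (BMDMs), primary macrophages grown from the marrow of wild type mice, which the study's methods describe as young male mice of the C57/BL6 strain. For 1 h all cells received either DMSO, the vehicle, or a single member of a panel of 58 kinase inhibitors in clinical use or trials (CKIs), after which they were left unstimulated (UT) or given 10 ng/mL of lipopolysaccharide (LPS), a bacterial TLR4 ligand, or 10 ng/mL of the cytokine IL-4 for 30 min, 1 h, 2 h or 4 h. H3K27ac, the acetyl mark on histone H3 found at promoters and enhancers in use, was profiled by ChIP-seq in 18 DMSO libraries, 2 for each of 9 groups, and in 546 CKI libraries, in most cases 1 for each CKI, stimulus and time. UT samples carry 4 h without stimulus in one label and time 0 in another. They are the start of both time courses, which therefore share those 2 libraries. Each CKI was used at the half-maximal effective concentration for its own intended target, per the study's methods, so doses differed between CKIs and are not in the labels. The labels do not say whether the 2 DMSO libraries of a group come from separate cultures, so p-values measure the spread between these libraries, which may be technical.

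IL-4 binds a receptor on macrophages that signals through JAK kinases to the transcription factor STAT6, and the cells then turn on a set of genes linked to type 2 immunity, parasite defence and tissue repair. The 7 genes are widely used to recognise this state. LPS drives the opposing, classical programme through NF-kB and interferons.

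All 8 macrophage marker genes checked had a CRE at their start, with UT levels of 226 to 2082 normalised reads, while all CREs had a median of 36.5. CREs within 1 kb of a protein-coding start had a median of 145 and a 90th percentile of 403.7. Of the markers of other cell types, 1 of 4 T cell genes had a CRE at its start (Lck, 87 reads), 1 of 4 B cell genes (Ms4a1, 70), 2 of 4 neutrophil genes (S100a8, 12.5, and Mmp8, 68.5), 2 of 4 dendritic cell genes (Flt3, 7, and Xcr1, 296.5), 2 of 4 fibroblast genes (Col1a1, 3.5, and Pdgfra, 1.5) and 0 of 4 epithelial genes. Contrast, taken as the median of the strongest 10% of CREs over that of the weakest 10%, was 53.0 to 133.7 in the DMSO libraries and 3.34 to 67.2 in the CKI libraries. Over the 3000 CREs that varied most between DMSO groups, 545 of the 546 CKI libraries were nearest to a DMSO group of their own stimulus, and the exception was a second library of BMS387032 at 1 h of IL-4, which was nearest to LPS.

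The sequences of 4 CREs are shown because the results below turn on them: the only Chil4 CRE, the Retnla CRE with the largest IL-4 gain, the CRE at the Mgl2 start, and the Tgm2 CRE with the largest IL-4 loss. Each is the central 300 bases of the CRE on the plus strand of mm10, and capitals mark matches on either strand to TTC-N4-GAA (TTC and GAA with any 4 bases between), the spacing preferred by STAT6, or to TTCNNNGAA, the spacing of other STAT factors.
Chil4 -2.3 kb, chr3:106221615-106221914: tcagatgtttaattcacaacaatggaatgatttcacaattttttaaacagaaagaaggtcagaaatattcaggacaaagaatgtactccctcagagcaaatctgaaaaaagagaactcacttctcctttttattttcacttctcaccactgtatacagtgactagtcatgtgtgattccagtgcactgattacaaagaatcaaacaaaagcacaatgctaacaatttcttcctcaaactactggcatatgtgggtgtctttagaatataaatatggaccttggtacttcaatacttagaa
Retnla +20.8 kb, chr16:48863278-48863577: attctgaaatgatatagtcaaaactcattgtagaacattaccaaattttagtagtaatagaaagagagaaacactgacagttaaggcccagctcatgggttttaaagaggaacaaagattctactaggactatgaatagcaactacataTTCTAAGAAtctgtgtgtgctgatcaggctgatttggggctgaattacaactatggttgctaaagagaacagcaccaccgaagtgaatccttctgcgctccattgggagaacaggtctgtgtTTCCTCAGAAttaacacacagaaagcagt
Mgl2 -0.5 kb, chr11:70129516-70129815: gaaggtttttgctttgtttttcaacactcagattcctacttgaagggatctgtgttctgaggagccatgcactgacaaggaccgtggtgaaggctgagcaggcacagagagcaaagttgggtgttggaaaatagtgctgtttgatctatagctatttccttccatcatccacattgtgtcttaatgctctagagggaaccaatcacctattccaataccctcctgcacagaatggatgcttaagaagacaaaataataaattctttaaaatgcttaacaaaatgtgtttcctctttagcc
Tgm2 +13.1 kb, chr2:158133132-158133431: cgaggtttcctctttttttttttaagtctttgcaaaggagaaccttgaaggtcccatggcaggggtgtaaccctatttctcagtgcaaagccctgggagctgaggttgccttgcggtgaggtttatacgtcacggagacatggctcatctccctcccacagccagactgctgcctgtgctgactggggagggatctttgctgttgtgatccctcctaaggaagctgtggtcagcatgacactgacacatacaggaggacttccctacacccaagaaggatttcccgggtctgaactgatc
Retnla +20.8 kb held 1 match to TTC-N4-GAA and 1 to TTCNNNGAA, and the other 3 held neither in the window. Over all 29 CREs, TTC-N4-GAA was found in 8 (27.6%), against 9.21% of all 59190 CREs in windows of the same length. TTCNNNGAA was found in 4 (13.8%, against 9.40%), the AP-1 motif TGANTCA in 9 (31.0%, against 20.2%) and the PU.1 motif GAGGAAGT in 4 (13.8%, against 9.11%). The 8 CREs with TTC-N4-GAA were Clec10a +22.8 kb, Mgl2 -15.4 kb, Mrc1 -24.7 kb with 2 matches, Mrc1 +15.4 kb, Mrc1 +22.7 kb, Retnla +20.8 kb, Tgm2 -7.8 kb and Tgm2 +15.5 kb. These matches describe letters in a window and not bound sites.

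The first question was how H3K27ac at the marker genes moved after IL-4 in DMSO-treated cells. A CRE was called changed where the moderated F test of limma over the 4 times gave an adjusted p (printed below beside each largest difference) under 0.01 and the largest of the 4 log2 differences from UT was over 1 in size, and its direction is that of the largest difference. All 29 CREs had enough signal to be tested. After IL-4, 18 were called higher and 5 lower, and 6 were not called, whereas 24.7% of the 47018 CREs tested were called in either direction, 13.6% higher and 11.0% lower. The median of the largest log2 differences was 1.36 over the 29 CREs and 0.21 over all CREs tested. The 18 gains lay at Chil4 (1 of 1), Retnla (4 of 4), Mgl2 (3 of 3), Mrc1 (5 of 8), Clec10a (1 of 3) and Tgm2 (4 of 10), and all 5 losses were at Tgm2.

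**Figure D1:**
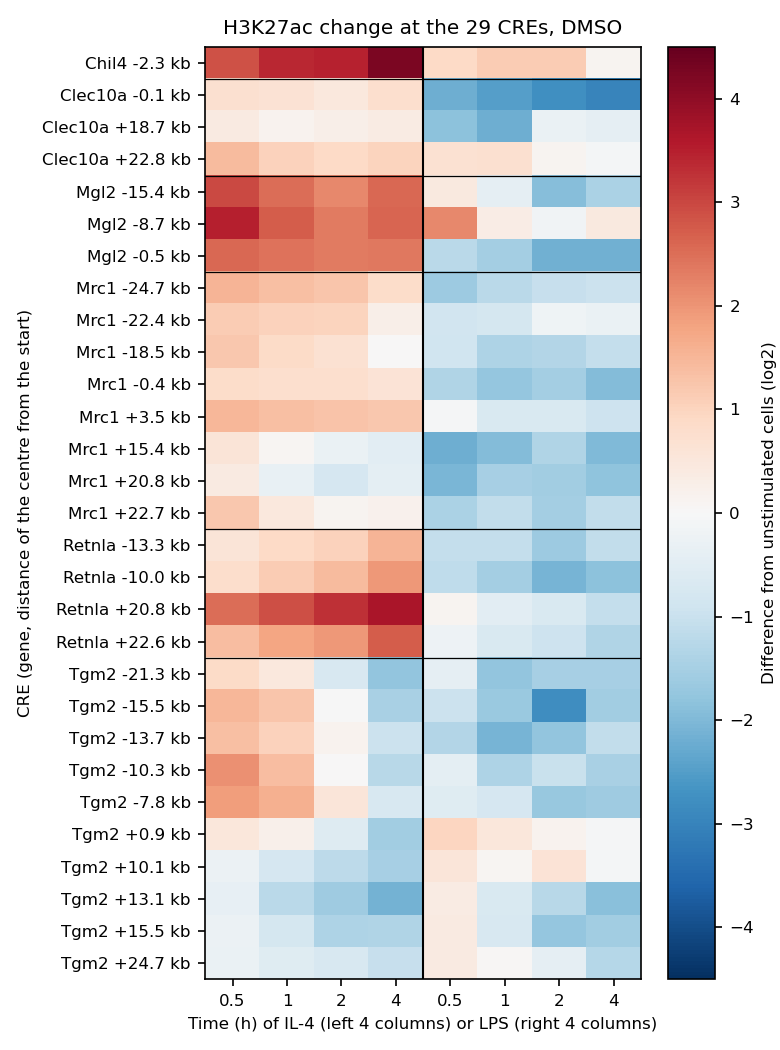
Log2 difference in H3K27ac between stimulated and UT cells, DMSO only, for the 29 CREs (rows) at the 4 times of IL-4 (left 4 columns) and of LPS (right 4 columns), from the means of 2 libraries each. The Chil4, Retnla and Mgl2 rows are red throughout IL-4, while the Tgm2 rows turn from red or pale to blue, and most rows are blue after LPS.

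Chil4 encodes Ym2, a secreted chitinase-like protein that binds sugars but lacks chitinase activity. Its CRE, Chil4 -2.3 kb (chr3:106220922-106222606, intergenic), was nearly unmarked in UT cells, with 4 and 6 normalised reads. After IL-4 it held 73 and 61 reads at 30 min, 89 and 110 at 1 h, 108 and 99 at 2 h, and 175 and 189 at 4 h. Every IL-4 library stood above both UT libraries, and the signal went on rising to the last time. On the log2(value + 5) scale used throughout, which understates changes of low values, the difference from UT was 2.85 at 30 min and 4.23 (SE 0.22) at 4 h, with an adjusted p of 3.7e-21 and the largest gain among the 29 CREs. The step from 30 min to 4 h was itself 1.38 (SE 0.22, adjusted p = 2.0e-06).

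Retnla encodes RELMα, a small secreted protein made in quantity by IL-4-activated macrophages and by epithelium in type 2 inflammation. Its 4 CREs are intergenic. Retnla -10.0 kb (chr16:48830620-48834621) is the nearest, and Retnla +20.8 kb (chr16:48862585-48864269) and Retnla +22.6 kb lie closer to the start of the relative Retnlg, as Retnla -13.3 kb does to that of Retnlb. Retnla +20.8 kb rose from 26 and 16 reads in UT cells to 173 and 113 at 30 min, 191 and 179 at 1 h, 244 and 239 at 2 h, and 339 and 307 at 4 h, a log2 difference of 3.68 (SE 0.18, adjusted p = 6.8e-23) at the last time. Retnla -10.0 kb started at a higher level, 189 and 154 reads, and reached 306 and 296 at 30 min and 696 and 652 at 4 h, a difference of 1.95 (SE 0.11, adjusted p = 2.1e-19). All 4 Retnla CREs were highest at 4 h. Between 30 min and 4 h of IL-4 they gained 0.96 to 1.35 on the log2 scale, and 3 of the 4 were called higher at 4 h, as was Chil4 -2.3 kb. No other CRE of the 29 was called higher at 4 h than at 30 min, a call made at 2.43% of the CREs tested. This comparison of late with early times was added after the time courses had been seen.

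Mgl2 and Clec10a are neighbours on chromosome 11 and encode galactose-type C-type lectins, receptors that bind galactose and N-acetylgalactosamine on glycans. The CRE at the Mgl2 start, Mgl2 -0.5 kb (chr11:70128439-70130892, reaching into the first, non-coding exon), held 95 and 78 reads in UT cells and 564 and 524 after 30 min of IL-4. It then stayed high, with 487 and 499 reads at 1 h, 430 and 486 at 2 h, and 480 and 461 at 4 h. The log2 difference was 2.59 (SE 0.11) at 30 min and 2.38 at 4 h, with an adjusted p of 8.1e-26. The intergenic Mgl2 -8.7 kb (chr11:70120676-70122257) went from 18 reads in both UT libraries to 238 and 268 at 30 min and 126 and 150 at 4 h, a largest difference of 3.49 (SE 0.18). Of the 51-base words in Mgl2 -8.7 kb, 40.4% occur again elsewhere in the genome, so its values depend in part on how reads with several positions were placed. The same holds to a lesser degree at Retnla -10.0 kb (26.5%), Retnla +22.6 kb (19.4%) and Retnla -13.3 kb (11.2%), but not at Retnla +20.8 kb, Mgl2 -0.5 kb and Chil4 -2.3 kb (0%). Mgl2 -15.4 kb rose by 2.97 (SE 0.14). No Mgl2 CRE was called different between 30 min and 4 h, with Mgl2 -8.7 kb the nearest to a call (-0.85, SE 0.18, adjusted p = 2.1e-04).

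At Clec10a the gain after IL-4 was smaller. The CRE at its start, Clec10a -0.1 kb (chr11:70165730-70167321), went from 190 and 194 reads to 325 and 317 at 30 min and 334 and 318 at 4 h. Every IL-4 library was above both UT libraries, but the largest difference, 0.75 (SE 0.12, adjusted p = 8.7e-07), was below the size required for a call. Clec10a +22.8 kb was called higher, from 34 and 29 reads to 87 and 99 at 30 min (1.43, SE 0.22), a call lost under quantile normalization (0.79). Clec10a +18.7 kb moved by at most 0.40 (adjusted p = 0.12).

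Mrc1 encodes the mannose receptor CD206, an endocytic receptor for mannosylated glycoproteins. Its CREs were well marked in UT cells, from 53 and 57 reads at Mrc1 +22.7 kb to 378 and 357 at Mrc1 -22.4 kb, which lies above 94.1% of all CREs. Mrc1 -24.7 kb (chr2:14203852-14205533, in an intron of the neighbouring gene Tmem236) rose from 172 and 156 reads to 447 and 513 at 30 min and then declined, with 417 and 428 at 1 h, 393 and 398 at 2 h, and 292 and 302 at 4 h. Its largest difference was 1.52 (SE 0.11, adjusted p = 3.6e-16), at 30 min, and 0.84 remained at 4 h. Mrc1 +3.5 kb, in an Mrc1 intron, rose by 1.48 (SE 0.10) and was still 1.20 above UT at 4 h. The other Mrc1 CREs called higher were Mrc1 -18.5 kb, Mrc1 -22.4 kb and Mrc1 +22.7 kb, each by 1.16 to 1.22 at 30 min and by at most 0.26 at 4 h. The CRE at the start, Mrc1 -0.4 kb (chr2:14227906-14230157), went from 285 and 279 reads to 535 and 473, a difference of 0.82 (SE 0.10) that did not reach the size for a call. All 8 Mrc1 CREs had their highest IL-4 mean at 30 min.

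**Figure D2:**
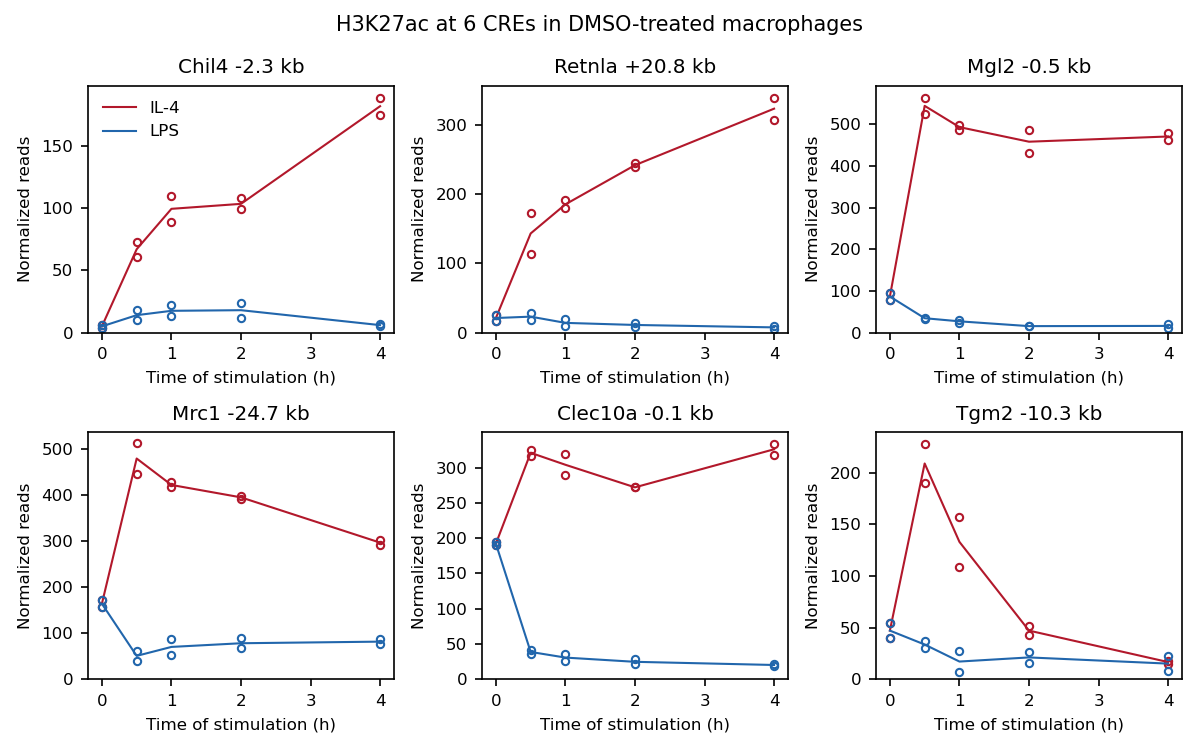
Normalised reads (y axis) against time of stimulation in hours (x axis) at 6 CREs in DMSO-treated cells. Circles are single libraries, 2 per point, lines join their means, and UT is drawn at 0 h for both IL-4 (red) and LPS (blue). Chil4 and Retnla +20.8 kb climb to 4 h of IL-4, Mgl2 -0.5 kb stays high, Mrc1 -24.7 kb declines from 30 min, and Tgm2 -10.3 kb ends below its UT level.

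Tgm2 encodes transglutaminase 2, an enzyme that cross-links proteins, and it is a marker of alternative activation shared between mouse and human. Its 10 CREs did not move as 1 block. The 4 upstream CREs Tgm2 -15.5 kb, -13.7 kb, -10.3 kb and -7.8 kb rose by 1.51, 1.36, 2.05 and 1.86 at 30 min of IL-4 and lay below UT by 4 h, at -1.46, -0.96, -1.26 and -0.73. Tgm2 -10.3 kb (chr2:158155908-158157454, intergenic) went from 54 and 40 reads in UT cells to 228 and 190 at 30 min, 109 and 157 at 1 h, 43 and 51 at 2 h, and 15 and 18 at 4 h. The fifth upstream CRE, Tgm2 -21.3 kb, went from 308 and 309 reads to 597 and 536 at 30 min and then to 79 and 96 at 4 h, so that its largest difference was a loss of -1.77 (SE 0.13). Tgm2 +0.9 kb (chr2:158143648-158147271, over the first exon and intron) showed the same order on a smaller scale, with 273 reads in both UT libraries, 403 and 379 at 30 min, and 83 and 93 at 4 h, a difference of -1.58 (SE 0.13).

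The 4 CREs farther inside the gene had no early gain. Tgm2 +13.1 kb (chr2:158132322-158134241, overlapping a coding exon) fell at each successive time, from 380 and 331 reads in UT cells to 297 and 252 at 30 min, 172 and 133 at 1 h, 130 and 100 at 2 h, and 79 and 75 at 4 h. Its difference at 4 h was -2.13 (SE 0.15, adjusted p = 8.5e-17), the largest loss after IL-4 among the 29 CREs. Tgm2 +10.1 kb fell by 1.48 and Tgm2 +15.5 kb by 1.37 on the log2 scale, and the latter call was lost under quantile normalization (-0.90). Tgm2 +24.7 kb, at 55 and 25 reads in the UT libraries, was not called (-1.02, SE 0.35, adjusted p = 0.079). From 30 min to 4 h of IL-4, 9 of the 10 Tgm2 CREs were called lower, by -1.12 to -3.31, a call made at 7.79% of the CREs tested, and the only other CREs of the 29 so called were Mrc1 -18.5 kb, +15.4 kb and +22.7 kb.

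**Figure D3:**
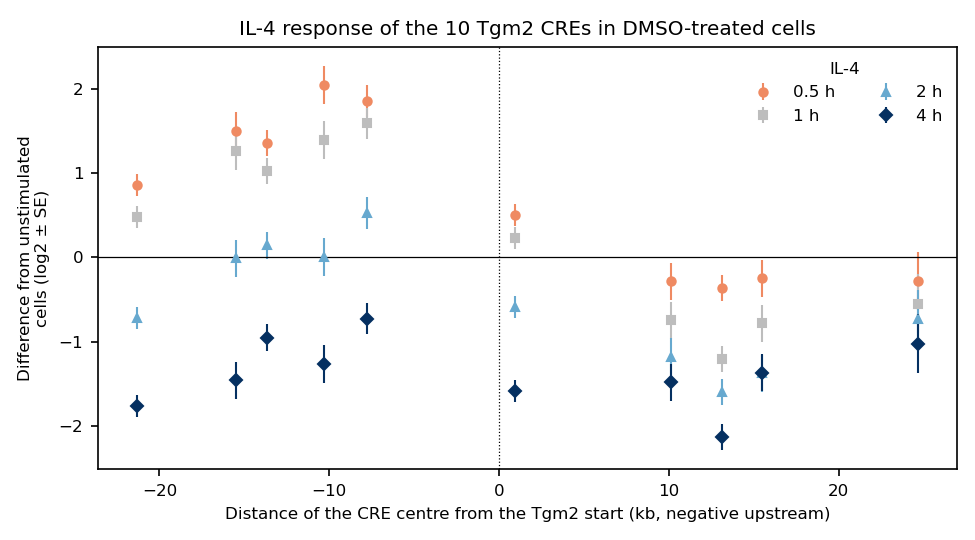
Log2 difference from UT (y axis, with SE) at the 10 Tgm2 CREs in DMSO-treated cells after each of the 4 times of IL-4, against the distance of the CRE centre from the Tgm2 start in kb (x axis, upstream negative). The 5 upstream CREs are above 0 at 0.5 h, the CREs from +10.1 kb on are not, and all 10 are below 0 at 4 h.

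After LPS, the marker genes lost H3K27ac. Of the 29 CREs, 20 were called lower, 1 higher and 8 not, against 53.5% of the 50697 CREs tested called in either direction, 24.6% lower and 29.0% higher. The median of the largest differences was -1.65 over the 29 CREs and 0.37 over all CREs tested. Of the 8 general macrophage markers, 6 were also called lower and 0 higher, with a median of -1.66, among them Csf1r (-1.52, SE 0.09), Cd68 (-1.64, SE 0.10) and Mertk (-2.30, SE 0.22), and the part of such a shared loss in the values of the 29 CREs was not tested. Calls of loss were made at Tgm2 (8 of 10), Mrc1 (6 of 8), Clec10a (2 of 3), Mgl2 (2 of 3) and Retnla (2 of 4) and not at the single Chil4 CRE.

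Clec10a -0.1 kb lost most. From 190 and 194 reads in UT cells it went to 41 and 36 at 30 min, 26 and 35 at 1 h, 28 and 21 at 2 h, and 22 and 18 at 4 h of LPS, a difference of -2.98 (SE 0.28, adjusted p = 2.5e-11), with no LPS library near the UT level. Clec10a +18.7 kb fell to 31 and 19 reads at 1 h from 137 and 124 and was back at 106 and 91 at 4 h, a step from 30 min of 1.47 (SE 0.26), and it was the only CRE of the 29 called higher at 4 h than at 30 min of LPS, a call made at 14.0% of the CREs tested. Clec10a +22.8 kb was not called (largest difference 0.70, adjusted p = 0.017).

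Mgl2 -0.5 kb went from 95 and 78 reads to 33 and 36 at 30 min and to 11 and 21 at 4 h of LPS, a difference of -2.16 (SE 0.31, adjusted p = 5.7e-07). Mgl2 -8.7 kb was the single CRE called higher after LPS, with 104 and 90 reads at 30 min against 18 in both UT libraries (2.15, SE 0.37, adjusted p = 6.1e-06). The gain did not last, since it held 39 and 14 reads at 1 h and 8 and 27 at 2 h. Mgl2 -15.4 kb held 53 and 67 reads at 30 min, near its 44 and 42 in UT cells, and 6 and 10 at 2 h (-1.90, SE 0.33).

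At Mrc1 the losses were largest at the intronic Mrc1 +15.4 kb (chr2:14244020-14245615), from 141 and 178 reads to 33 and 28 at 30 min (-2.21, SE 0.25, adjusted p = 3.8e-09). The start, Mrc1 -0.4 kb, went from 285 and 279 reads to 71 and 66 at 4 h (-1.97, SE 0.21). Mrc1 -22.4 kb and Mrc1 +3.5 kb fell by less than the size for a call, with largest differences of -0.86 and -0.95. The call at Mrc1 +22.7 kb (-1.52, SE 0.37) was lost when either UT library was left out (adjusted p = 0.039 and 0.063).

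Retnla -10.0 kb fell from 189 and 154 reads to 35 and 38 at 2 h of LPS (-2.08, SE 0.25, adjusted p = 1.9e-08). Retnla -13.3 kb was called lower (-1.65, SE 0.35), and that call was lost without either UT library (adjusted p = 0.056 and 0.018). Retnla +20.8 kb and Retnla +22.6 kb, already low in UT cells, had largest differences of -1.06 (adjusted p = 0.044) and -1.36 (0.028) and were not called. Chil4 -2.3 kb held 5 to 24 reads over the 8 LPS libraries, a largest difference of 1.16 (SE 0.41, adjusted p = 0.020) that was not called. In a fit of all 18 DMSO libraries, which gives a firmer estimate of the spread, Chil4 -2.3 kb was called higher and both of these Retnla CREs lower.

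LPS lowered 8 of the 10 Tgm2 CREs. Tgm2 -15.5 kb (chr2:158161090-158162660) fell from 62 and 47 reads to 4 and 3 at 2 h (-2.80, SE 0.40, adjusted p = 3.1e-06), and the largest differences of the other 4 upstream CREs were -1.46 to -2.11. The call at Tgm2 -10.3 kb was lost without the first UT library (adjusted p = 0.039) or the second library at 4 h (0.013). Tgm2 +0.9 kb went the other way at first, from 273 in both UT libraries to 533 and 550 reads at 30 min, and was back at 278 and 247 at 4 h; its largest difference of 0.97 (SE 0.13, adjusted p = 1.3e-08) fell just short of a call. Tgm2 +10.1 kb was not called (0.60). Tgm2 +13.1 kb held 432 and 484 reads at 30 min and 103 and 82 at 4 h, a difference of -1.89 (SE 0.16), and Tgm2 +15.5 kb fell by 1.75. The call at Tgm2 +24.7 kb (-1.28, SE 0.33) was lost without the first UT library (-0.78).

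Set directly against IL-4 at the same times, LPS left 24 of the 29 CREs lower and 2 higher, with 3 not called. Among the 50587 CREs tested 58.4% were called, 29.2% lower and 29.2% higher, and the medians of the largest differences were -2.58 over the 29 CREs and -0.34 over all. Among the lowest values were those at Retnla +20.8 kb, with 5 and 10 reads at 4 h of LPS against 339 and 307 at 4 h of IL-4 (-4.74, SE 0.29), at Mgl2 -0.5 kb (-4.54, SE 0.20), at Chil4 -2.3 kb (-4.09, SE 0.31) and at Clec10a -0.1 kb (-3.73, SE 0.19). Their LPS and IL-4 libraries did not overlap at any time. The 2 CREs higher after LPS than after IL-4 were Tgm2 +0.9 kb (1.52, SE 0.13, at 4 h) and Tgm2 +10.1 kb (1.78, SE 0.21, at 2 h), and Tgm2 +13.1, +15.5 and +24.7 kb were not called. At the 4 upstream CREs from -15.5 kb to -7.8 kb the difference was -2.42 to -2.67 at 30 min but -0.10 to -0.86 at 4 h, when both stimuli had left them low.

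Of the other alternative activation genes in a list of 12, read at a CRE within 2.5 kb of the start, 10 had such a CRE and 8 had enough signal to be tested after IL-4. All 8 were called higher, among them Pdcd1lg2, the gene of the PD-1 ligand PD-L2 (4.60, SE 0.17), Flt1 (3.40, SE 0.15), the arginine transporter gene Slc7a2 (3.33, SE 0.18) and arginase 1, Arg1 (2.38, SE 0.10). After LPS, 5 of the 10 were called higher and 4 lower, Slc7a2 (3.46, SE 0.22) and Arg1 (-1.52, SE 0.25) on opposite sides. Of 11 genes of the IL-4 receptor and JAK-STAT pathway, 10 had a CRE, and 3 were called higher and 0 lower after IL-4: the feedback inhibitors Cish (2.48, SE 0.12) and Socs1 (2.25, SE 0.08), and the kinase gene Jak2 (1.22, SE 0.10). Stat6, with 692.5 reads in UT cells, moved by -0.32 at most after IL-4 and by -1.27 (SE 0.11) after LPS, where 5 of the 10 were higher and 1 lower. Of 10 transcription factor genes linked to alternative activation, 3 were called higher and 0 lower after IL-4, Batf3 (1.86, SE 0.14), Egr2 (1.82, SE 0.10) and Irf4 (1.51, SE 0.20), and 3 higher and 1 lower after LPS. Beside these lists and those below, 13.6% of all CREs tested were called higher and 11.0% lower after IL-4. After LPS, 29.0% were called higher and 24.6% lower.

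Of 8 genes of classical activation with a CRE at the start, all 8 were called higher after LPS, such as Nos2 (4.53, SE 0.23), while 7 were tested after IL-4, 3 of them higher and 1 lower. Of 10 relatives of the markers in the same families, 4 had a CRE at the start and 2 were tested. Asgr2, the asialoglycoprotein receptor gene near Clec10a, was not called after IL-4 (0.68, SE 0.12) and was lower after LPS (-3.32, SE 0.31), and Tgm1 was higher after IL-4 (1.02, SE 0.20).

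Over the 18 DMSO libraries, the CREs whose pattern was most like that of Mrc1 -24.7 kb on other chromosomes or over 1 Mb away lay near Slc25a18 (Pearson r = 0.989), Matn3 (0.982) and Arap2 (0.981). These correlations were taken over libraries that share their stimulus groups and are given as descriptions.

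The next question was what the CKIs did to these responses. With each CKI set against its own UT libraries, the mean over the IL-4 times was above the same CKI's UT level in 58 of 58 CKIs at Mgl2 -15.4, -8.7 and -0.5 kb, Mrc1 -24.7, -0.4 and +3.5 kb, and Retnla -10.0 and +20.8 kb, which is 8 of the 29 CREs. At the Chil4 CRE, the other Retnla CREs, Clec10a -0.1 and +22.8 kb, and Mrc1 -22.4, -18.5 and +22.7 kb the count was 51 to 57. No share over all CREs is given beside these counts, so they do not set the marker genes apart from other CREs. At Mgl2 -0.5 kb the CKI libraries held 39 to 156 reads (median 91) without stimulus and 138 to 574 (median 360.5) after IL-4. The response there ranged from 0.96 under Afatinib, an ERBB inhibitor, to 2.94 under Refametinib, a MEK inhibitor, with 2.44 in DMSO. At Chil4 -2.3 kb 54 of 58 CKIs were above their own UT, with responses from -0.16 under Talmapimod to 4.04 under SGX523 and a median of 1.42, against 3.48 in DMSO. Both extremes rest on a single UT library, of 128 reads for Talmapimod, in a library with 1 read worth 12.8 units, and of 2 for SGX523, while their IL-4 libraries held 75 to 156 and 56 to 170 reads. Talmapimod had no library at 4 h of IL-4, the time at which the DMSO libraries were highest at this CRE. The CKI libraries held 0 to 128 reads (median 21) at Chil4 -2.3 kb without stimulus, where the 2 DMSO libraries held 4 and 6.

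The losses were shared in the same way. Tgm2 +0.9, +13.1 and +15.5 kb were below their own UT level after IL-4 in 58 of 58 CKIs. After LPS, Clec10a -0.1 and +18.7 kb, Mrc1 -0.4 and +20.8 kb, and 5 of the Tgm2 CREs were below it in 58 of 58. For these counts, too, no share over all CREs is given. At Clec10a -0.1 kb the response to LPS ranged from -2.46 under Selumetinib to -0.11 under PH797804, with -2.60 in DMSO, so no CKI reached the loss measured in DMSO.

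Each CKI was then set against DMSO over UT and IL-4 libraries together, with time as a factor. A pair of CKI and CRE was called where limma gave an adjusted p under 0.05 and a log2 difference over 0.5 in size. A difference already present without stimulus therefore counts towards a call, and the calls are not of the IL-4 response alone. Of the 1682 pairs, 312 were called lower and 103 higher, against 3.03% lower and 36.2% higher over all CREs and CKIs. The lower calls were most frequent at Mrc1 -18.5 kb and -22.4 kb (44 of 58 CKIs each), Mgl2 -8.7 kb (39), Retnla -10.0 kb (26) and Tgm2 -7.8 kb (23), and the higher calls on Clec10a +22.8 kb (40), a weak CRE in UT cells, and Tgm2 +24.7 kb (35). Contrast was lower in nearly all CKI libraries than in DMSO, as given above, and its part in these calls was not tested. With the other CKIs of the same run as the reference in place of DMSO, 13 pairs were called lower and 5 higher, against 0.379% and 0.828% over all CREs. These 18 pairs came from BGT226 (6), Omipalisib (4), PH797804 (3) and single calls of Filgotinib, BMS911543, Lenvatinib, Pimasertib and AMG208. PH797804, at Clec10a +18.7, Mrc1 -0.4 and Tgm2 -7.8 kb, had 1.50% of all CREs lower and 38.8% higher than its run. After quantile normalization, 260 pairs were lower and 7 higher than DMSO, against 3.80% and 2.77% of all pairs. A run here is 1 of 6 stretches of 8 to 10 CKIs whose columns follow each other in the table, since the labels give no batch, and DMSO stands outside the runs, so a run and a difference from DMSO cannot be told apart.

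With UT and LPS libraries fitted together, 39 of the 1682 pairs were lower and 360 higher than DMSO, against 4.04% and 32.3% of all pairs. The higher calls were most frequent at Clec10a +22.8 kb (50 of 58 CKIs), Mgl2 -0.5 kb (44) and Chil4 -2.3 kb (31). Against the own run 10 were lower and 14 higher (0.391% and 0.709% of all pairs), of which PH797804 gave 6 and 7, a CKI with 11.9% of all CREs lower and 30.3% higher than its run and an LPS library at 30 min with 1 read worth 23.6 units, and after quantile normalization 68 were lower and 9 higher than DMSO (2.61% and 1.98%).

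JAK kinases carry the IL-4 signal, and 6 of the CKIs were developed as JAK inhibitors: BMS911543, Filgotinib, Momelotinib, Pacritinib, Ruxolitinib and Tofacitinib. Against DMSO, over UT and IL-4 libraries together, 38 of their 174 pairs were called lower (21.8%) and 8 higher (4.60%). The same 6 CKIs gave 3.42% lower and 29.0% higher over all CREs. The other 52 CKIs gave 274 of 1508 pairs lower (18.2%) and 95 higher (6.30%). BMS911543 had 13 of the 29 CREs called lower (6.38% of all CREs were), Filgotinib 10 (5.25%), Ruxolitinib 6 (3.84%), and Momelotinib (2.17%), Pacritinib (1.25%) and Tofacitinib (1.62%) had 3 each. After quantile normalization, which equalises the distributions of the libraries, 34 of the 174 pairs were lower and 0 higher, where 4.36% and 3.06% of all pairs were. Mrc1 -18.5 kb was called lower under all 6, by -0.69 to -1.69, and Mgl2 -8.7 kb and Mrc1 -22.4 kb under 5, while Chil4 -2.3 kb was called under Filgotinib (-1.68) and Ruxolitinib (-1.13). Mgl2 -0.5 kb and Clec10a -0.1 kb were not called under any of the 6. Over all 58 CKIs, Mrc1 -18.5 kb and Mrc1 -22.4 kb were called lower under 44 each and Mgl2 -8.7 kb under 39. Chil4 -2.3 kb was called lower under 5, Mgl2 -0.5 kb under 9 and Clec10a -0.1 kb under 8.

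Against the other CKIs of their run, over UT and IL-4 libraries together, 0.312% of all pairs of these CKIs were lower and 0.0397% higher. Among the 174 pairs, 2 were called lower and 0 higher. One was Filgotinib, with 1.10% of all CREs lower, at Chil4 -2.3 kb (-1.26, SE 0.32, adjusted p = 0.015). The other was BMS911543, with 0.771% lower, at Mrc1 -22.4 kb (-0.73, SE 0.14, adjusted p = 3.2e-04). Both compounds stand in the first run. After LPS, 7 of the 174 pairs were lower and 33 higher against DMSO, where 3.73% and 30.4% of all pairs of these CKIs were, and 7 and 1 were after quantile normalization (1.67% and 1.08%). Against their own run 0 were lower and 2 higher, where 0.217% and 0.910% were, both under Pacritinib, at Mrc1 +22.7 kb (1.18, SE 0.30) and Retnla +22.6 kb (1.22), a CKI with 5.35% of all CREs called higher in that comparison.

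With 1 mean value per CKI, the 6 JAK inhibitors were compared with the other 52 CKIs. The grouping follows what the CKIs were developed against, not the kinase that set the dose. Per the study, TG100572 among the 52 was used at its concentration for the JAK kinase TYK2, and Apitolisib was used to target JAK1. Of the 6, Filgotinib, Tofacitinib and BMS911543 were not found to bind JAK kinases in the binding assay that set the doses. After IL-4, after LPS and without stimulus, 0 of the 29 CREs passed an adjusted p under 0.05 in limma, and 0% of all CREs did. At an unadjusted p under 0.05, 4 of the 29 were lower and 0 higher after IL-4, where 4.19% and 0.756% of all CREs were; 0 were lower or higher after LPS (1.72% and 0.328%), and 1 was lower and 0 higher without stimulus (2.52% and 0.0998%). Differences of the size of the Mgl2 response were outside the intervals. At Mgl2 -0.5 kb the JAK inhibitors differed from the other CKIs by -0.02 (SE 0.09, 95% interval -0.21 to 0.17), at Mgl2 -15.4 kb by -0.08 (-0.26 to 0.09), at Clec10a -0.1 kb by 0.02 (-0.14 to 0.18), at Mrc1 -24.7 kb by -0.11 (-0.39 to 0.17) and at Retnla -10.0 kb by -0.11 (-0.37 to 0.15). At Mgl2 -0.5 kb the single JAK inhibitor libraries ranged from 253 to 451 reads over the 4 IL-4 times, and the other CKIs' medians from 339 to 377.5.

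The 4 CREs with an unadjusted p under 0.05 after IL-4 were Chil4 -2.3 kb (-0.72, SE 0.20, 95% interval -1.11 to -0.32), Mgl2 -8.7 kb (-0.46, SE 0.22), Mrc1 -18.5 kb (-0.35, SE 0.14) and Retnla -13.3 kb (-0.35, SE 0.17), with an adjusted p of 0.67 at Chil4 and 0.94 to 0.97 at the others. At Chil4 -2.3 kb Filgotinib gave 17, 0, 40 and 18 reads at 30 min, 1 h, 2 h and 4 h of IL-4, Ruxolitinib 27, 9, 74 and 56, and Tofacitinib 33, 46, 38 and 61. BMS911543 gave 40, 32, 66 and 105 reads, Pacritinib 65, 50, 62 and 132, and Momelotinib 41, 23, 80 and 231. The other CKIs had medians of 62.5, 70, 77 and 92 reads at these times, so all 6 JAK inhibitors were below the median at 1 h, while Momelotinib, BMS911543 and Pacritinib were above it at 4 h. Filgotinib had the lowest mean level of the 58 CKIs, and its IL-4 libraries were shallow, with 1 read worth 5.69 to 9.35 of the normalised units.

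Taken at 1 h alone, a choice made after the data were seen, the difference at Chil4 -2.3 kb was -1.71 (SE 0.33, adjusted p = 0.049), the only CRE of the 29 past the threshold, where 0.00507% of all CREs were. The adjusted p was 0.097 with the run as a covariate (-1.51), 0.32 without Filgotinib (-1.26), 0.38 without Ruxolitinib, 0.10 without Momelotinib, 0.070 without BMS911543, and 0.063 without the BMS387032 library that was nearest to LPS, while it was 0.0060 without Pacritinib and 0.011 without Tofacitinib. With each CKI's own UT level subtracted, over all 4 times, the difference at Chil4 -2.3 kb was -0.24 (SE 0.38, adjusted p = 1.0). The levels themselves differed by -0.65 at 30 min, by -0.34 at 2 h and by -0.12 at 4 h, without a call.

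**Figure D4:**
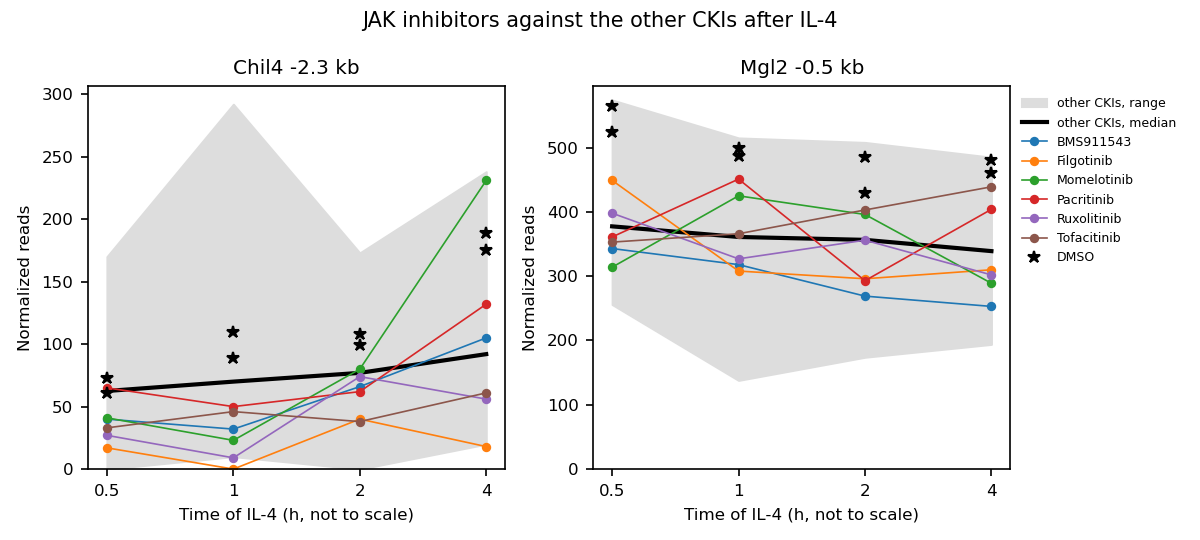
Normalised reads (y axis) at Chil4 -2.3 kb and Mgl2 -0.5 kb after IL-4 (x axis, the 4 times, not to scale) for the 6 JAK inhibitors (coloured lines, 1 library each), the other CKIs (grey range and black median) and the 2 DMSO libraries (stars). At Chil4 all 6 JAK inhibitors are below the median at 1 h and spread over 18 to 231 reads at 4 h, and at Mgl2 they lie on both sides of the median.

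Outside the JAK inhibitors, BGT226, a dual inhibitor of PI3K and mTOR kinases, stood apart at Retnla and was picked out after its values were seen. At Retnla +20.8 kb it gave 43, 63, 62 and 111 reads at 30 min, 1 h, 2 h and 4 h of IL-4, and the 9 other CKIs of its run had medians of 129, 125, 193 and 202 and lowest values of 63, 101, 167 and 153. At Retnla -10.0 kb it gave 131, 144, 176 and 164 reads against medians of 274, 295, 364 and 471. At all 4 Retnla CREs and all 4 times BGT226 was below the lowest of the other 9. Its mean difference from them over UT and IL-4 libraries together was -1.11 to -1.18 (SE 0.16 to 0.27, adjusted p in limma between 4.3e-09 and 4.1e-04). That comparison called 6.15% of all CREs lower and 4.45% higher. Libraries of 1 compound at different times count as replicates in it. Its p-values therefore do not measure how far a repeat with BGT226 would vary. Its single UT library was already low, with 19 reads at Retnla +20.8 kb and 72 at Retnla -10.0 kb, below the lowest of the 10 UT libraries of the other CKIs of the run (24 and 101), and with 42 at Retnla -13.3 kb and 21 at Retnla +22.6 kb, within their range. Set against its own UT, a comparison added after the data were seen and given without a test, BGT226 responded to IL-4 by 1.56 at Retnla +20.8 kb and 1.04 at Retnla -10.0 kb, where the run medians were 1.87 and 1.21 and 3 of the 9 other CKIs responded less. At Retnla -13.3 kb, with 26, 39, 23 and 50 reads after IL-4, the value was -0.30 (run median 0.42, 0 of the 9 lower). At Retnla +22.6 kb, with 17, 26, 39 and 44 reads, it was 0.42 (run median 1.43, 1 of the 9 lower).

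No CRE of the other marker genes was called lower under BGT226 in that comparison. Mgl2 -0.5 kb held 324, 320, 260 and 217 reads at the 4 times, below the run medians of 389, 425, 372 and 363. Its difference in limma over UT and IL-4 libraries together, -0.46 (SE 0.13, adjusted p = 0.0078), was under the size for a call. Mrc1 -24.7 kb held 544, 477, 410 and 345 reads, above the run median at each time, and Chil4 -2.3 kb held 48, 139, 91 and 211, where the medians were 66, 56, 76 and 78. Tgm2 +10.1 kb (0.68, SE 0.19, adjusted p = 0.0050) and Tgm2 +13.1 kb (0.53, SE 0.16, adjusted p = 0.012) were higher than in the rest of the run, and no other CRE of the 29 was called. Of the 6 other CKIs that act on PI3K or mTOR, Omipalisib differed from its own run at the 4 Retnla CREs by -0.56 to -0.66, with 1 called (Retnla -10.0 kb, -0.56, SE 0.16, adjusted p = 0.014). It was also lower at Mgl2 -0.5 kb (-0.61, SE 0.13) and higher at Tgm2 +0.9 kb (0.60) and +10.1 kb (0.82), in a comparison that called 3.67% of all CREs lower and 1.02% higher. PF04691502 (-0.19 to -0.03), Apitolisib (-0.25 to 0.03), AZD2014 (-0.13 to 0.54), AZD8186 (-0.49 to 0.48) and TG100115 (-0.03 to 0.14) had no Retnla CRE called. Doses differed between these CKIs, so the values stand side by side without a comparison among them.

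**Figure D5:**
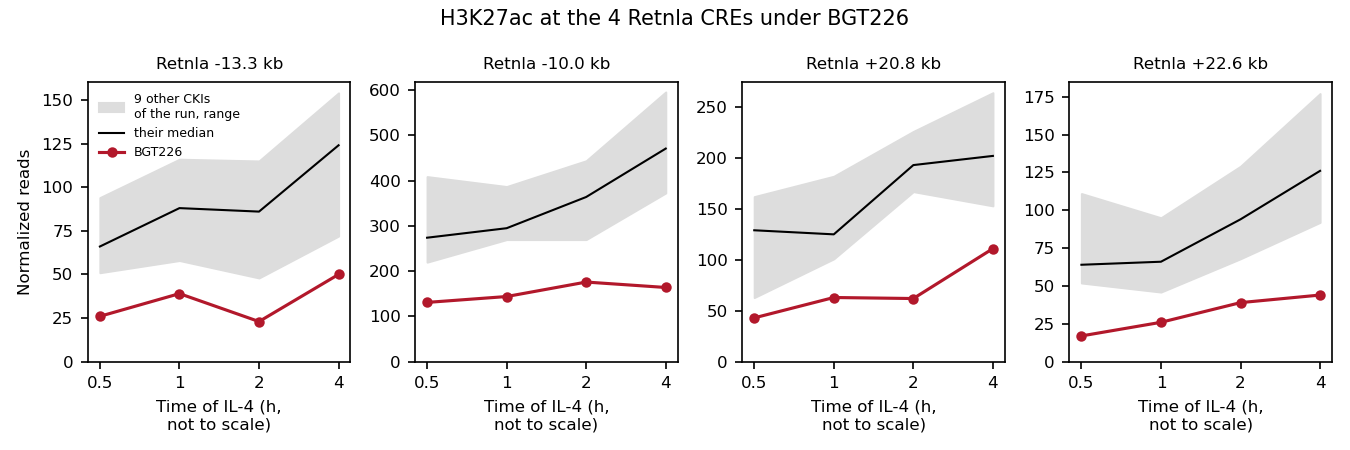
Normalised reads (y axis) at the 4 Retnla CREs after IL-4 (x axis, the 4 times, not to scale) under BGT226 (red, 1 library per time) and under the 9 other CKIs of its run (grey range, black median). BGT226 lies below the grey range at every time in each panel.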

How the data were processed

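Per the labels and the study's methods, single-end H3K27ac ChIP-seq reads were trimmed to 51 bases and mapped to mm10 with ShortStack; the processing notes also name Bowtie and SAMtools, without versions. The authors counted reads at ATAC-seq peaks, scaled each library on invariant peaks and deposited normalised read counts rounded to whole numbers, which were treated as a score, so count models were not applied and no counting interval is given. The table held 0 columns without a sample.

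Differences were tested on log2(value + 5) with limma 3.58.1 in R 4.3.3 (moderated variances, mean trend), for CREs with a mean of at least 10, with Benjamini-Hochberg adjustment over all CREs tested. Two-sided calls needed an adjusted p under 0.01 and a log2 size over 1 in DMSO courses, and an adjusted p under 0.05 and a size over 0.5 for CKIs. The fits of single CKIs held UT and stimulated libraries, with time as a factor and a spread shared over compounds. Most CKIs have 1 library per time, so libraries of 1 CKI at different times count as its replicates. The p-values of single CKIs do not measure how far a repeat of the same treatment would vary. JAK inhibitors were tested with 1 mean per CKI, taken over times after subtracting the median CKI at each time. The named CREs of a gene were the nearest to its start and those with the largest IL-4 and LPS differences, and others stand in counts or were chosen after their values were seen. The members and lists were chosen with earlier results of these data known.

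Libraries summed to 4066894 to 12391409 normalised reads. The spacing of values gave the worth of 1 read in 463 of 564 libraries, 1.27 to 23.6 units, hence 172151 to 5262286 reads in CREs, and precision is least in the shallow CKI libraries. The tests were tested on simulated data. Alternatives changed the pseudocount, filter, threshold, normalization, reference and libraries. Annotation and sequences are from RefSeq, GRCm38.p6, and motifs were searched on both strands. The CREs most like those of Retnla in pattern are not reported here.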

Additional observations from a re-analysis of the deposited data

Results flagged for a closer look

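Values for the 6 JAK inhibitors were checked for 1 standing far from the other 5 in 45 groups of 6, and 3 groups held one. Chance gives about 1 in 20, but only for groups chosen without regard to these values. Mrc1 -18.5 kb and Retnla -13.3 kb were among the groups because JAK inhibitors were low there after IL-4, so that rate does not hold for them. Filgotinib was far below the others at Retnla -13.3 kb after IL-4, at a log2 level relative to the median CKI of -1.40 against -0.36 for the next, BMS911543. BMS911543 stood low at Clec10a -0.1 kb after IL-4 (-0.34, next Momelotinib at -0.05) and at Tgm2 +0.9 kb without stimulus (-0.29, next Filgotinib at 0.04).

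Another group of results changed sign within the IL-4 course in DMSO cells, with the difference between 4 h and 30 min tested by limma. The log2 step was -2.63 at Tgm2 -21.3 kb, -2.97 at Tgm2 -15.5 kb, -2.32 at Tgm2 -13.7 kb, -3.31 at Tgm2 -10.3 kb, -2.59 at Tgm2 -7.8 kb and -2.09 at Tgm2 +0.9 kb, each above UT at 30 min and below it at 4 h. Mrc1 +15.4 kb did the same on a smaller scale (-1.06). The adjusted p was between 8.6e-21 and 3.4e-07, and at all 7 CREs both libraries were above the UT libraries at 30 min and below them at 4 h.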

How the results depend on the processing

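Each DMSO call was repeated under other settings. Over the 29 CREs, 485 of 493 values for IL-4, 470 of 492 for LPS and 634 of 638 for LPS against IL-4 kept their direction and side of the threshold, and 0 reversed. With a replicate block all 29 CREs kept their call in each of the 3 comparisons. Same-numbered libraries did not deviate together (correlations of -0.087 to 0.066 over 36 pairs of groups, 0 over 0.1). No pairing by number was seen in these values, which cannot decide whether same-numbered libraries share a culture. Quantile normalization ended the IL-4 calls at Clec10a +22.8 kb, Mrc1 -18.5 kb, Mrc1 +22.7 kb and Tgm2 +15.5 kb. LPS gains numbered 2 with all 18 DMSO libraries and 3 at a threshold of 0.5, and without 1 library LPS losses numbered 16 to 21. The cause of these changes was not tested.

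Counts of CKI pairs against DMSO, each from UT and stimulated libraries together, moved with the reference. After IL-4, pairs called lower, 312 with DMSO, numbered 49 against the mean of all CKIs, 13 against the own run and 71 at a threshold of 1; pairs called higher, 103, numbered 17, 5 and 21, 7 after quantile normalization and 66 to 97 without 1 DMSO replicate. For JAK inhibitors the 38 lower pairs became 13, 2 and 14, and the 8 higher pairs 1, 0 and 2, and 0 after quantile normalization. After LPS, the 360 higher pairs became 15, 14 and 144, and 9 after quantile normalization; the 39 lower pairs became 10 against the own run, 12 at a threshold of 1, 68 after quantile normalization and 24 to 33 without a replicate. For JAK inhibitors the 33 higher pairs became 0, 2 and 13, and 1 after quantile normalization, and the 7 lower pairs 0 against the own run, 3 at a threshold of 1 and 3 to 5 without a replicate. In the comparison of JAK inhibitors with the other CKIs after IL-4, CREs called lower numbered 1 at 1 h alone and 0 to 1 without 1 JAK inhibitor, and the difference at Mgl2 -8.7 kb was 0.034 with the own UT level subtracted. Depth limits the weak CREs most.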
